A study of Mus musculus with 18 samples.

Results

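The late and the early state of *Lin28A* overexpressing (OE) mouse kidneys were set against each other, as 3 libraries after 5 weeks and 3 libraries after 1 week of doxycycline (Dox). These are 6 of the 18 libraries of the series, and 16984 of its 49585 gene rows were used, those with a mean normalized value above 10 over all 18 libraries. OE kidneys at 5 weeks and at 1 week had the genotype Lox-stop-Lox-TetOn-Lin28A; Six2Cre. Control kidneys at 5 weeks and at 1 week, 3 libraries each, had Lox-stop-Lox-TetOn-Lin28A without the Cre allele. All mice, controls included, drank Dox at 1 g/L for the stated weeks, so every group carried the inducible construct and the drug. *Six2*-Cre removes the stop cassette in the progenitors of the nephron, and adult nephron cells inherit the change. The collecting duct, stroma, vessels and immune cells come from other lineages. The labels give no age, sex, strain or hour of harvest, and do not say that libraries came from separate animals, so p-values measure the spread between libraries, which may be partly technical. Each library is RNA of kidney tissue, in which fewer cells of a type and less RNA per cell cannot be told apart.

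LIN28A is an RNA-binding protein of embryonic cells that blocks the maturation of let-7 microRNAs. Mature let-7 in turn represses a set of growth genes of fetal tissue. Injured kidney tubules switch on injury markers, chemokines and interferon response genes and lower their transporters and metabolic enzymes, and a tubule that recovers goes back the other way, while one that does not keeps injury genes on beside active fibroblasts. Type I interferon acts through the ISGF3 complex on the interferon-stimulated response element (ISRE), and tumour necrosis factor and bacterial products act through NF-κB on κB sites.

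The mouse let-7 members share the seed that pairs with target messages. The table of mature miRNAs holds 8 let-7 sequences of the 5p arm, and all 8 have the seed of let-7a. From RefSeq on GRCm38.p6, 3 of them are given here, with the seed, bases 2 to 8 from the 5′ end, in capitals.
let-7a-5p: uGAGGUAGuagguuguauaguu
let-7g-5p: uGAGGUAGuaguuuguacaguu
let-7i-5p: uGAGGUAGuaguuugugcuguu
Let-7a-5p lies at chr13:48538239-48538260 on the minus strand, let-7g-5p at chr9:106178846-106178867 on the plus strand and let-7i-5p at chr10:122985698-122985719 on the minus strand. Small RNAs were not measured in these libraries, so the data give the target messages and not let-7 itself.

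Many interferon response and chemokine genes were lower at 5 weeks, and 4 of their promoters are printed because they hold letters like those that interferon and NF-κB factors are known to bind. Each run is 300 bases, from 250 before the start of the gene, written 5′ to 3′ on the strand of the gene, from RefSeq on GRCm38.p6. In *Ifit1* (chr19:34640639-34640938, plus strand), *Oas3* (chr5:120777610-120777909, minus strand) and *Cxcl10* (chr5:92348840-92349139, minus strand), capitals mark GAAA followed by any 2 bases and GAAA, on either strand, an ISRE-like pattern. In *Cxcl1* (chr5:90890995-90891294, plus strand), capitals mark GGG followed by any 2 bases and TTTCC, on either strand, a κB-like pattern. The pattern stands 2 times in the *Ifit1* window and 2 times in the *Cxcl1* window.
Ifit1: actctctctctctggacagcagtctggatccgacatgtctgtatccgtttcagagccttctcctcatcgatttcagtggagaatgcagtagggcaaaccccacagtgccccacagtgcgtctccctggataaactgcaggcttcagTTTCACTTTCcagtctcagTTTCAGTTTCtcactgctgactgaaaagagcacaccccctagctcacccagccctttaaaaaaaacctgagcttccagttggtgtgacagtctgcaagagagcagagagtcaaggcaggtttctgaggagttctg
Oas3: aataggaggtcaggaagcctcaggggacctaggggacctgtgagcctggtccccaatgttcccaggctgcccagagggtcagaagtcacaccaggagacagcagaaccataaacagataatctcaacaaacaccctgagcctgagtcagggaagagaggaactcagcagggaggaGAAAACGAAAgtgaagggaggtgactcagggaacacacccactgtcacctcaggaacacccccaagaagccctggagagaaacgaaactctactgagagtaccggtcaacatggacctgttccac
Cxcl10: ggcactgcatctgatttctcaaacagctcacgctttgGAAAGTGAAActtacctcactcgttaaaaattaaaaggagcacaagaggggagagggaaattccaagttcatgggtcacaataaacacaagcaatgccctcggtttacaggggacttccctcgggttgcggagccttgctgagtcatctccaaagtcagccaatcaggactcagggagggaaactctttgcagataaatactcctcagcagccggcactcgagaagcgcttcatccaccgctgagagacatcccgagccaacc
Cxcl1: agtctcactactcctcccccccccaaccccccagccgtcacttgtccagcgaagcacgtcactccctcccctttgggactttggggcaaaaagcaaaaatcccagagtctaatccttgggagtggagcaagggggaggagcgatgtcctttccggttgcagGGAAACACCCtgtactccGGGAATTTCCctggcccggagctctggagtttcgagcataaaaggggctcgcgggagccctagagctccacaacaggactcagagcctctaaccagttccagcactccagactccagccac
The ISRE-like pattern was present in 3.44% of all 32851 promoters of this length, and in at least 1 promoter of 3.99% of the 27025 genes that have one. It was present for 13 of the 21 interferon response genes and 9 of the 10 interferon-induced GTPase genes with a promoter entry. The κB-like pattern was present in 1.63% of promoters and for 1.89% of genes, and for 4 of 12 NF-κB subunit and inhibitor genes and 2 of 10 CXC chemokine genes. A match describes the letters of the window only.

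Libraries were of similar depth, with 25839963 to 26844887 reads in OE kidneys at 5 weeks and 21176911 to 26578917 at 1 week, and 23966377 to 28686369 in the controls of those weeks. The kidney markers *Slc34a1*, *Lrp2*, *Umod*, *Slc12a1*, *Slc12a3*, *Aqp2* and *Nphs1* were present in every OE library, the lowest being *Nphs1* with 101 normalized reads at 5 weeks, against a lowest value of 292 at 1 week. *Ddx3y*, a Y-linked gene, was above 100 in 2 of 3 OE libraries at 5 weeks, 2 of 3 at 1 week, 2 of 3 controls at 5 weeks and 3 of 3 at 1 week, so each OE group held 1 library without it, replicate 2 at 5 weeks and replicate 1 at 1 week. Results were run again on the other libraries alone. A few genes were near 0 in some libraries and not in others of 1 group, and their values are given at the end.

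Differences were tested with limma on log2(normalized value + 1), which understates the change of low genes, and p-values were adjusted by Benjamini-Hochberg over all 16984 genes. At an adjusted p under 0.05, 1892 genes (11.1%) were higher and 2505 (14.7%) lower in OE kidneys at 5 weeks than at 1 week, and 38.3% of genes had an unadjusted p under 0.05. With a log2 fold change above 1 or below -1 as well, the definition of a differentially expressed gene (DEG), 756 genes (4.45%) were higher and 830 (4.89%) lower. The 3 libraries of 5 weeks lay all above the 3 of 1 week for 19.4% of genes, and all below for 23.2%. The median log2 difference over all genes was 0.01, and it was 0.02 with edgeR and 0.03 after quantile normalization, so list medians can be read against a value close to 0. Counts of list members past the test are likewise to be read against 11.1% higher and 14.7% lower. Counts without overlap are to be read against 19.4% above and 23.2% below.

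**Figure D1:**
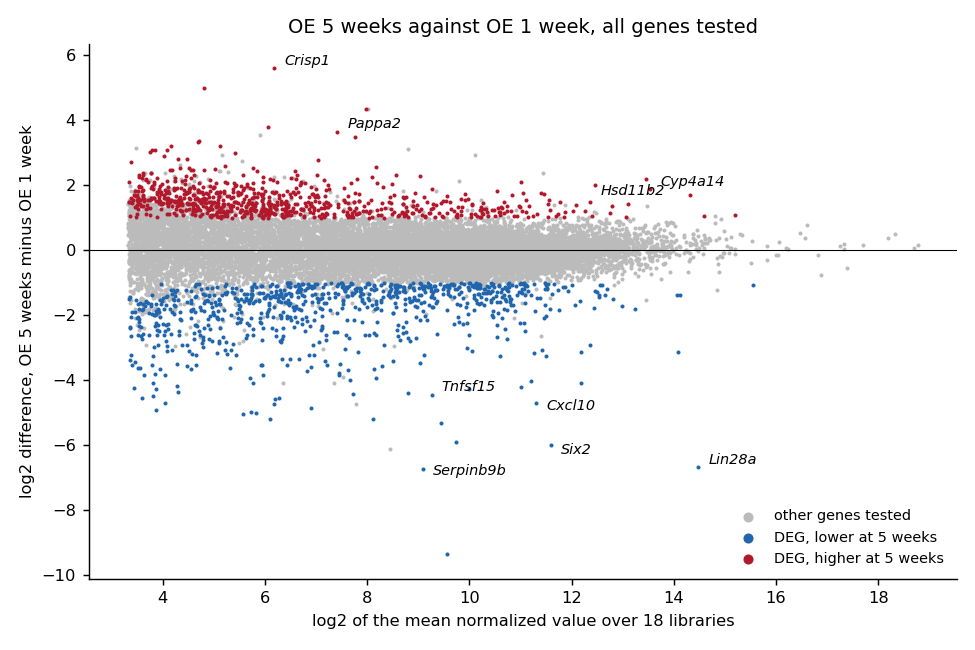
Log2 difference of OE kidneys at 5 weeks minus OE kidneys at 1 week (y) against the log2 mean normalized value over 18 libraries (x), 1 point a gene. The 756 red genes were higher and the 830 blue genes lower at 5 weeks, and *Lin28a* lies at -6.66. The lowest point is the pseudogene *Rps2-ps13*, described at the end.

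*Lin28a* itself fell far between the weeks, although Dox was given throughout. *Lin28a* (ENSMUSG00000050966.9, chr4:134003330-134018841, GRCm38) had 615, 600 and 420 normalized reads in OE kidneys at 5 weeks, against 41737, 68744 and 56496 at 1 week. The log2 difference was -6.66 (SE 0.29, adjusted p = 1.6e-09), a ratio of means of 102 to 1 in favour of 1 week. Every library of 5 weeks was still above the controls, which averaged 23.8 ± 6.50 at 5 weeks and 21.8 ± 6.42 at 1 week (SD, n = 3 each). Reads at this gene come from the transgene and the mouse gene together and cannot be told apart.

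*Six2* (chr17:85684277-85688274), the transcription factor that keeps nephron progenitors from differentiating, followed the same course. It had 159, 95.4 and 48.3 normalized reads in OE kidneys at 5 weeks, against 4828, 6607 and 5936 at 1 week (log2 difference -5.98, SE 0.58, adjusted p = 5.07e-06). Controls averaged 2.60 ± 0.905 at 5 weeks and 2.52 ± 2.26 at 1 week (SD, n = 3 each). The mice carry a Cre transgene made with *Six2* sequence, and its reads cannot be told apart from those of the gene. In OE kidneys the means at 1, 2 and 5 weeks, in that order, were 55659, 80282 and 545 for *Lin28a*, and 5791, 12678 and 101 for *Six2*.

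Among 23 tested genes that let-7 is known to repress, 8 were lower and 1 higher at 5 weeks, with a list median of -0.05. The shares over all genes were 14.7% lower and 11.1% higher. *Igf2bp1*, a fetal RNA-binding protein, had 72.9, 148 and 97.6 normalized reads in OE kidneys at 5 weeks, against 301, 524 and 664 at 1 week (log2 difference -2.20, SE 0.30, adjusted p = 8.87e-05). *Igf2bp2*, its paralog, had 431, 664 and 661 at 5 weeks, against 1615, 2178 and 1779 at 1 week (-1.68, SE 0.16, adjusted p = 5.08e-06). The groups did not overlap for either gene, and *Igf2bp2* at 5 weeks was still above its control mean of 188 ± 19.6 (SD, n = 3), while *Igf2bp1* was below its control mean of 157 ± 42.0. *Hmga1*, a chromatin protein of growing cells, fell by 1.69 (adjusted p = 6.39e-05), and *Nr6a1*, an orphan nuclear receptor of embryonic cells, fell by 1.55 (adjusted p = 0.00151). *Thbs1*, a matrix glycoprotein, was the member that rose, by 1.06 (adjusted p = 0.00295), with 4427, 7848 and 6246 at 5 weeks, against 2923, 2101 and 3899 at 1 week.

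**Figure D2:**
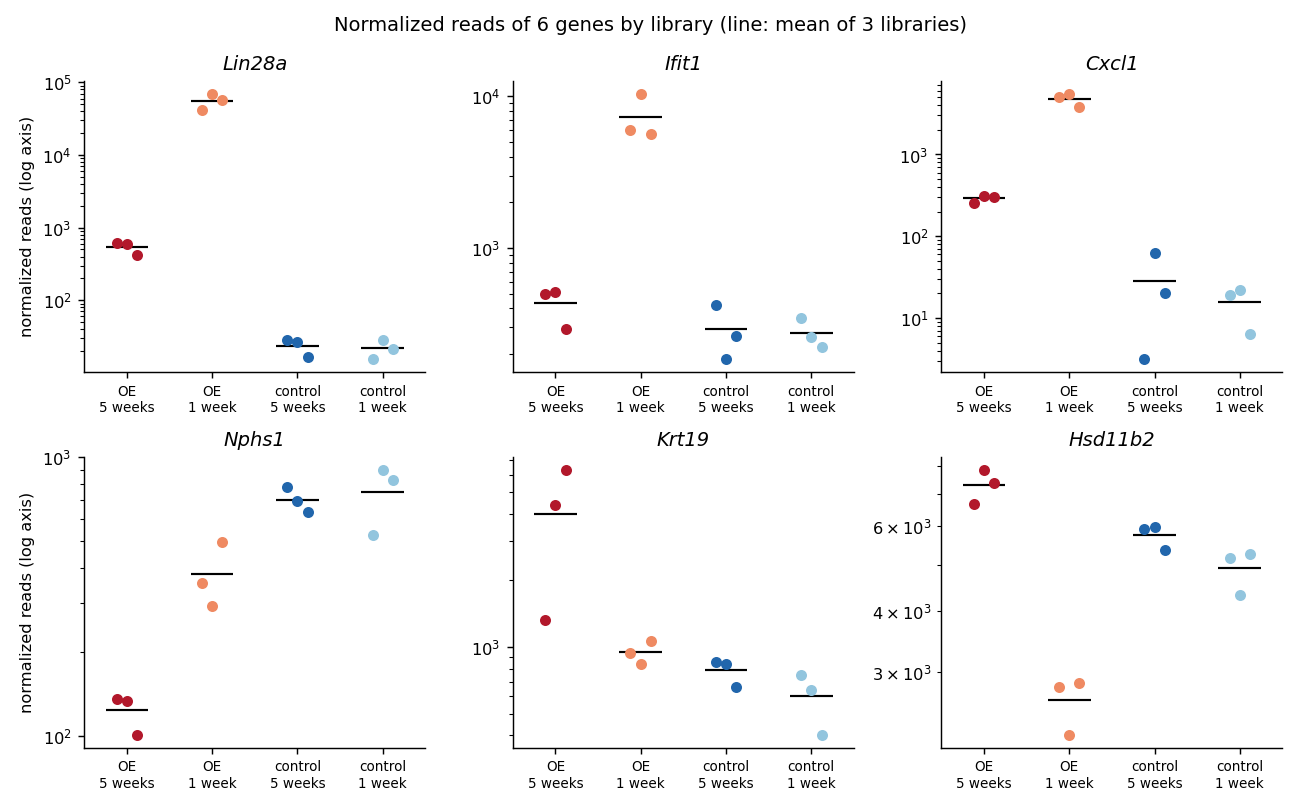
Normalized reads of 6 genes (log axes) in OE kidneys at 5 weeks, OE kidneys at 1 week, control kidneys at 5 weeks and control kidneys at 1 week, with a point for each library and a line at the mean of 3. *Lin28a*, *Ifit1*, *Cxcl1* and *Nphs1* are lower, and *Krt19* and *Hsd11b2* higher, in all 3 OE libraries at 5 weeks than in all 3 at 1 week.

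Interferon response genes fell together. Of 31 tested, 30 were lower and none higher in OE kidneys at 5 weeks than at 1 week, with a median log2 difference of -2.54. All 31 had every library of 5 weeks below every library of 1 week, as did 23.2% of all genes. *Ifit1* (chr19:34640871-34650009), which binds viral RNA and carries the ISRE-like pattern shown above, had 496, 510 and 293 normalized reads at 5 weeks, against 6036, 10336 and 5658 at 1 week. Its log2 difference was -4.07 (SE 0.32, adjusted p = 7.59e-07). *Oasl1*, of the oligoadenylate synthetase family, had 99.1, 144 and 106 at 5 weeks, against 1711, 2957 and 1869 at 1 week (-4.19, SE 0.31, adjusted p = 5.83e-07). *Oas3*, which makes the messenger that turns on RNase L, had 5.40, 24.3 and 10.5 at 5 weeks, against 156, 193 and 153 at 1 week (-3.76, SE 0.69, adjusted p = 0.00103). *Mx1*, an antiviral GTPase, fell by 3.46 (SE 0.63, adjusted p = 0.00104). Summed over the list, OE kidneys had 12008 to 16207 normalized reads at 5 weeks and 62068 to 99420 at 1 week, and the controls 10574 to 14740 at 5 weeks and 11275 to 15959 at 1 week. The summed level at 5 weeks thus overlapped that of the controls.

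The interferon-induced GTPases, which act on vacuoles that hold pathogens, moved the same way, with 15 of 16 lower, none higher and a median of -2.04. *Gbp6* had 5.40, 3.74 and 13.2 normalized reads at 5 weeks, against 197, 463 and 152 at 1 week (-5.0, SE 0.61, adjusted p = 3.51e-05). *Iigp1* had 351, 213 and 276 at 5 weeks, against 1254, 2048 and 1820 at 1 week (-2.60, SE 0.35, adjusted p = 7.31e-05). *Gbp10* fell by 3.54 (adjusted p = 0.000405) and *Tgtp1* fell by 3.21 (adjusted p = 0.000329), with a difference of -2.58 without OE replicate 2 of 5 weeks. These genes, like *Ifit1bl1* (-5.30, adjusted p = 6.98e-07), an *Ifit* paralog, and *Apol9a* (-5.19, adjusted p = 0.000264), an interferon-induced apolipoprotein L, have near copies among which reads may have been split, so single members are less certain than the family.

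Genes of MHC class I presentation, which shows peptides from within the cell, were lower for 13 of 17 and higher for none, with a median of -1.10. *H2-D1*, a classical class I heavy chain of a multigene family, had 2801, 3366 and 4095 normalized reads at 5 weeks, against 11411, 15685 and 9335 at 1 week (-1.81, SE 0.28, adjusted p = 0.000258). *Nlrc5*, the transactivator of class I genes, fell by 1.56 (adjusted p = 0.00211). The count of 13 became 8 without OE replicate 2 of 1 week, 8 without OE replicate 2 of 5 weeks and 7 with the libraries that had *Ddx3y* above 100. Class II presentation behaved otherwise, with 0 of 9 tested genes past the threshold in limma. *Cd74*, the invariant chain of class II, had 4299, 1473 and 4551 at 5 weeks, against 2899, 4763 and 3927 at 1 week (-0.30, SE 0.39, adjusted p = 0.604). The groups overlapped, and the sign turned without OE replicate 2 of 5 weeks (0.22). *Ctss*, the protease that trims the invariant chain, differed by -0.52 (SE 0.32, adjusted p = 0.254). The median over class II genes was 1.34 above control at 5 weeks and 1.11 above control at 1 week, so the class stood above the controls at both times.

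Of the 14 CXC chemokines tested, 7 were lower and 1 higher at 5 weeks, with a median of -0.96 (4 lower with the libraries that had *Ddx3y* above 100). *Cxcl1* (chr5:90891241-90893115), a chemoattractant of neutrophils, had 252, 313 and 305 normalized reads in OE kidneys at 5 weeks, against 5050, 5451 and 3810 at 1 week (-4.02, SE 0.68, adjusted p = 0.000551). The 5-week values stood above the controls of that week, which averaged 28.5 ± 30.2 (SD, n = 3). *Cxcl10* (chr5:92346638-92348889), an interferon-induced attractant of T cells, had 177, 203 and 213 at 5 weeks, against 5834, 7268 and 3255 at 1 week (-4.71, SE 0.27, adjusted p = 4.27e-08). *Cxcl11* of the same receptor had 39.6, 5.61 and 8.79 at 5 weeks, against 104, 404 and 72.1 at 1 week (-3.40, adjusted p = 0.00255), and its difference was -2.66 without OE replicate 2 of 1 week and -4.18 without OE replicate 1 of 5 weeks. *Cxcl5* fell by 3.22 (adjusted p = 0.00508), with a difference of -3.92 without OE replicate 3 of 5 weeks. *Cxcl14*, made by epithelium and stroma, went the other way, with 1711, 677 and 1624 at 5 weeks, against 320, 233 and 627 at 1 week (1.77, SE 0.42, adjusted p = 0.00596).

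Of 17 CC chemokines, 5 were lower and 1 higher, with a median of -0.84, beside 14.7% lower and 11.1% higher over all genes. *Ccl2*, the attractant of monocytes, had 168, 107 and 495 normalized reads at 5 weeks, against 844, 1083 and 868 at 1 week (-2.15, SE 0.56, adjusted p = 0.0103). The groups did not overlap, but the adjusted p was 0.0562 without OE replicate 2 of 5 weeks, and without replicate 3 of 5 weeks the difference was -2.78. *Ccl5*, which attracts T cells, had 44.1, 27.1 and 58.9 at 5 weeks, against 245, 335 and 277 at 1 week (-2.75, SE 0.68, adjusted p = 0.00835). With the libraries that had *Ddx3y* above 100, the adjusted p was 0.0851 for *Ccl2* and 0.0825 for *Ccl5*, and 0 members were lower. The count of 5 became 2, 3 and 2 without OE replicates 1, 2 and 3 of 1 week, and 3 and 1 without OE replicates 1 and 2 of 5 weeks, so the list rests on few libraries.

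*Tnf*, a main inflammatory cytokine, had 14.4, 4.67 and 30.8 normalized reads in OE kidneys at 5 weeks, against 203, 148 and 202 at 1 week (-3.70, SE 0.48, adjusted p = 5.94e-05), and its difference was -3.05 without OE replicate 2 of 5 weeks and -4.29 without replicate 3. *Tnfsf15*, the ligand TL1A, had 65.7, 101 and 94.9 at 5 weeks, against 1707, 1912 and 2042 at 1 week (-4.44, SE 0.26, adjusted p = 4.27e-08). Its 5-week mean did not stand above the control mean of 90.5 ± 17.8 (SD, n = 3). *Tnfrsf1b*, the second receptor of TNF, fell by 1.84 (adjusted p = 0.000461). In the TNF family 9 of 15 genes were lower and none higher, with a median of -1.27, and 4 were lower without OE replicate 2 of 5 weeks. Among 18 interleukins and colony stimulating factors, 6 were lower and none higher, with a median of -0.74, and 3 with the libraries that had *Ddx3y* above 100. *Csf3*, which raises neutrophil output, had 4.50, 8.41 and 13.2 at 5 weeks, against 164, 320 and 329 at 1 week (-4.85, SE 0.65, adjusted p = 8.14e-05). *Il1f9*, an epithelial interleukin of the IL-1 family, fell by 5.18 (adjusted p = 4.3e-05), with values of -5.82 and -4.58 without OE replicates 1 and 2 of 1 week and -4.53 without OE replicate 1 of 5 weeks. *Il6* was under the filter, with 35 reads over the 3 libraries of 5 weeks and 71 over those of 1 week.

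Of 15 subunits and inhibitors of NF-κB, 11 were lower and none higher, with a median of -0.83. The leading members are feedback inhibitors that NF-κB itself induces. *Nfkbid*, a nuclear IκB, had 32.4, 41.1 and 56.3 normalized reads at 5 weeks, against 470, 612 and 589 at 1 week (-3.68, SE 0.36, adjusted p = 5.92e-06). *Tnip1*, a partner of A20, had 861, 1035 and 1028 at 5 weeks, against 2854, 3611 and 2943 at 1 week (-1.68, SE 0.12, adjusted p = 5.83e-07). *Tnfaip3*, which encodes A20, fell by 1.63 (adjusted p = 1.41e-05) and *Nfkbie* fell by 1.44 (adjusted p = 7.5e-05). *Tnip1* at 5 weeks lay near its control mean of 831 ± 16.4 (SD, n = 3), and *Tnfaip3* at 337, 517 and 462 lay above its control mean of 208 ± 1.55.

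**Figure D3:**
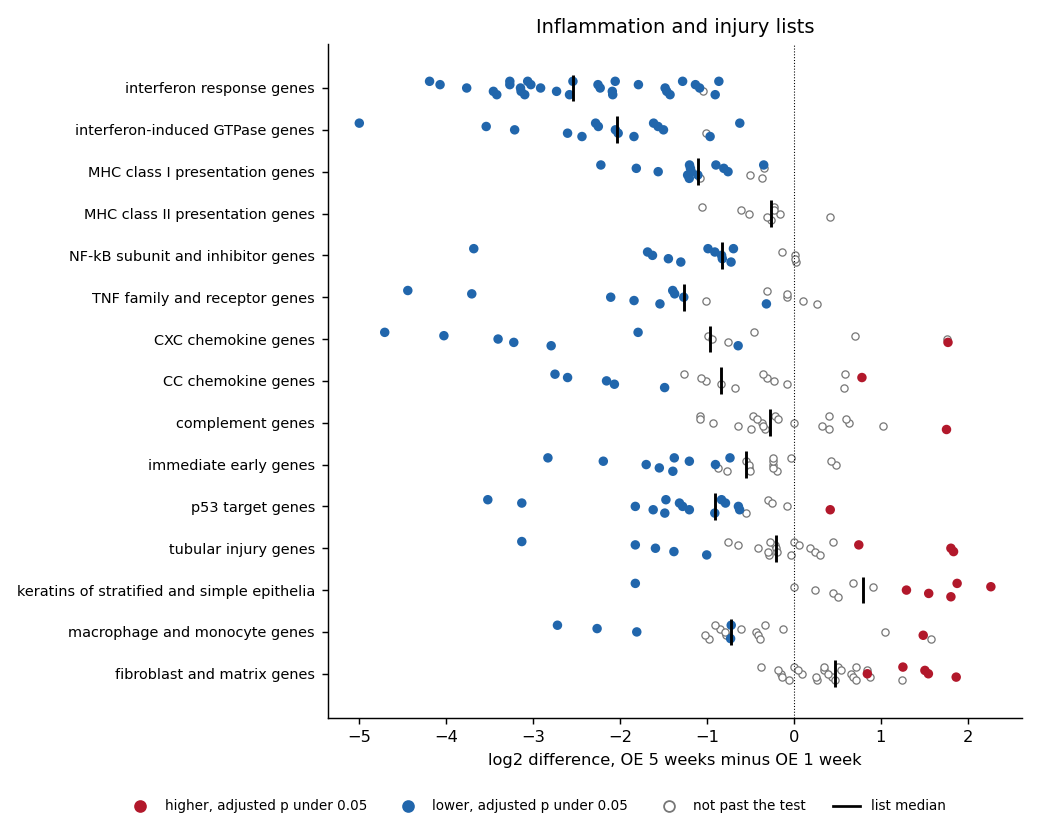
Log2 difference of OE kidneys at 5 weeks minus OE kidneys at 1 week (x) for each tested gene of 15 inflammation, injury and cell-type lists (rows), with filled points past an adjusted p of 0.05 and a bar at the list median. Interferon response genes have the lowest median, -2.54, and keratins the highest, 0.79.

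Markers of immune cells were lower in part. Of 20 macrophage and monocyte markers 5 were lower and 1 higher, with a median of -0.72, beside 14.7% lower and 11.1% higher over all genes. The summed level was 14616 to 20651 normalized reads in OE kidneys at 5 weeks and 22811 to 25982 at 1 week. The controls had 5105 to 5872 at 5 weeks, so the late OE kidneys stood well above them, with every marker of the list tested. *Ly6c2*, of inflammatory monocytes, had 17.1, 6.54 and 7.91 at 5 weeks, against 57.0, 68.7 and 85.0 at 1 week (-2.72, SE 0.53, adjusted p = 0.00168). *Aif1*, a macrophage calcium-binding protein, had 140, 43.0 and 141 at 5 weeks, against 334, 426 and 261 at 1 week (-1.81, SE 0.50, adjusted p = 0.015), with an adjusted p of 0.0588 without OE replicate 2 of 1 week and 0.0806 without OE replicate 2 of 5 weeks. The count of 5 was 3 without OE replicate 2 or 3 of 1 week or replicate 2 of 5 weeks, and 9 without replicate 3 of 5 weeks, and the higher marker lost its call without replicate 2 of either week or replicate 3 of 5 weeks. Of 10 tested neutrophil markers 5 were lower and none higher, with a median of -1.48, while 4 others were under the filter. *Cxcr2*, the receptor of *Cxcl1*, had 3.60, 5.61 and 14.1 at 5 weeks, against 29.6, 61.0 and 63.5 at 1 week (-2.69, SE 0.65, adjusted p = 0.00721). *S100a8* and *S100a9*, the calprotectin subunits, differed by -2.32 (adjusted p = 0.0113) and -2.40 (adjusted p = 0.00633), with adjusted p of 0.0746 and 0.0663 in the libraries that had *Ddx3y* above 100, where 1 neutrophil marker was lower. *S100a9* differed by -3.03 without OE replicate 3 of 5 weeks. Of 13 T and NK cell markers 5 were lower, but 0 without OE replicate 3 of 1 week or without OE replicate 2 of 5 weeks, and 3 without OE replicate 2 of 1 week or replicate 3 of 5 weeks. The part of these cells in the lower chemokine and cytokine levels was not tested. Of 20 complement genes 1 was higher and none lower in limma, a count that ran from 0 to 3 without single libraries, with medians of 1.39 above control at 5 weeks and 1.76 above control at 1 week.

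The injury markers *Havcr1* and *Lcn2*, which the study names, overlapped between the weeks. *Havcr1* (chr11:46735080-46779578), which encodes KIM-1, had 1272, 2022 and 4795 normalized reads in OE kidneys at 5 weeks, against 2244, 4608 and 4569 at 1 week (-0.65, SE 1.00, adjusted p = 0.672). *Lcn2*, which encodes NGAL, had 1635, 7827 and 5947 at 5 weeks, against 3377, 3038 and 5012 at 1 week (0.19, SE 0.47, adjusted p = 0.802). The groups overlapped for both, and *Lcn2* had a negative difference without OE replicate 2 (-0.25) or replicate 3 (-0.06) of 5 weeks. Both stood above the controls, which averaged 206 ± 167 for *Havcr1* and 167 ± 47.1 for *Lcn2* at 5 weeks (SD, n = 3 each). Of 24 tubular injury genes 5 were lower and 3 higher, with a median of -0.21. These shares were not far above the 14.7% lower and 11.1% higher over all genes. The medians of the list against the controls of the same week were 1.38 at 5 weeks and 1.66 at 1 week. The libraries of 5 weeks spread widely, with summed injury genes of 166733, 226761 and 339118 in replicates 1, 2 and 3, against 303288 to 350188 at 1 week.

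The few genes of the injury list past the test went both ways. *Cdkn1a* (chr17:29090976-29100727), which encodes the cell cycle inhibitor p21, had 500, 1970 and 1114 normalized reads at 5 weeks, against 7500, 10406 and 9441 at 1 week (-3.13, SE 0.43, adjusted p = 0.000106). *Hbegf*, a ligand of the EGF receptor, fell by 1.59 (adjusted p = 0.000218), with no overlap of the groups. *Sox9*, a transcription factor of regenerating and scarring tubules, rose, with 204, 332 and 491 at 5 weeks, against 85.5, 86.8 and 96.1 at 1 week (1.84, SE 0.35, adjusted p = 0.00153). Its controls averaged 31.4 ± 6.76 at 5 weeks (SD, n = 3). The higher count of 3 became 1 without OE replicate 3 of 5 weeks.

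Of 12 keratins, the intermediate filaments of epithelium, 5 were higher and 1 lower, with a median of 0.79. Over all genes 11.1% were higher and 14.7% lower. *Krt19* (chr11:100140810-100148665), of simple and ductal epithelium, had 1331, 4366 and 6299 normalized reads at 5 weeks, against 945, 842 and 1071 at 1 week (1.81, SE 0.47, adjusted p = 0.00998). All 3 libraries of 5 weeks were above those of 1 week, yet the adjusted p was 0.0549 without OE replicate 3 of 5 weeks, and the difference was 2.47 without replicate 1. *Krt17*, a keratin of stressed stratified epithelium, had 58.5, 118 and 73.8 at 5 weeks, against 33.0, 5.72 and 19.7 at 1 week (2.27, SE 0.61, adjusted p = 0.0128), with an adjusted p of 0.0729 and a difference of 1.61 without OE replicate 2 of 1 week, and an adjusted p of 0.057 without OE replicate 2 of 5 weeks. With the libraries that had *Ddx3y* above 100, the adjusted p was 0.0722 for *Krt19* and 0.0575 for *Krt17*. *Krt20*, a keratin of acutely injured tubule, was the member that fell, with 228, 395 and 499 at 5 weeks, against 685, 1632 and 1794 at 1 week (-1.82, SE 0.41, adjusted p = 0.0047). The higher count was 2, 3 and 2 without OE replicates 2 and 3 of 1 week and replicate 3 of 5 weeks.

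Of 19 p53 targets 14 were lower and 1 higher, with a median of -0.91. *Eda2r*, a death receptor of the TNF family, had 33.3, 36.5 and 35.2 normalized reads at 5 weeks, against 423, 539 and 306 at 1 week (-3.52, SE 0.31, adjusted p = 2.63e-06). *Plk2*, a kinase, and *Aen*, a nuclease, both induced by p53, differed by -1.82 (adjusted p = 2.97e-05) and -1.62 (adjusted p = 0.000121). The single higher gene was *Perp*, at 0.42, named after its values were seen, and it lost its call without any 1 of 5 libraries, OE replicates 1, 2 and 3 of 1 week and 2 and 3 of 5 weeks. Of 23 immediate early genes 9 were lower and none higher, with a median of -0.55. *Fosl1*, an AP-1 subunit, had 39.6, 82.3 and 112 at 5 weeks, against 198, 386 and 473 at 1 week (-2.19, SE 0.43, adjusted p = 0.00193). *Fosb*, another subunit, fell by 2.83 (adjusted p = 0.003), *Ier3* by 1.70 (adjusted p = 0.00126) and *Cyr61*, a matricellular target of YAP, fell by 1.55 (adjusted p = 0.00465).

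In the integrated stress and unfolded protein response 7 of 19 genes were lower and 1 higher, with a median of -0.09. *Chac1*, which degrades glutathione, had 39.6, 63.6 and 45.7 normalized reads at 5 weeks, against 456, 661 and 648 at 1 week (-3.55, SE 0.50, adjusted p = 0.000121). *Ddit3*, which encodes CHOP, had 521, 576 and 485 at 5 weeks, against 1439, 1903 and 1427 at 1 week (-1.58, SE 0.21, adjusted p = 9.17e-05). *Trib3* fell by 2.63 (adjusted p = 0.000209) and *Asns*, asparagine synthetase, by 1.73 (adjusted p = 0.00585), and both are targets of ATF4. *Slc7a11*, the cystine transporter, had 19.8, 58.0 and 46.6 at 5 weeks, against 379, 637 and 465 at 1 week (-3.64, SE 0.43, adjusted p = 2.59e-05). Of 15 Nrf2 pathway genes 2 were higher and 2 lower, with a median of -0.15, shares near those over all genes. *Slc7a11* is one of those that fell, and those that rose were *Nqo1*, a quinone reductase, by 1.28 (adjusted p = 0.000699) and *Gstm1*, a glutathione transferase, by 0.97 (adjusted p = 0.000367). Of 15 genes of necroptosis and pyroptosis 6 were lower and 1 higher, with a median of -0.91. *Zbp1*, a sensor of Z-form nucleic acid, had 49.5, 35.5 and 35.2 at 5 weeks, against 352, 424 and 306 at 1 week (-3.14, SE 0.47, adjusted p = 0.000232). It is also a member of the interferon response list, so its fall is counted in both. *Mlkl*, the executioner of necroptosis, fell by 1.85 (adjusted p = 6.4e-05), and *Dfna5*, which encodes gasdermin E, rose by 0.83 (adjusted p = 0.00456).

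Serpins, inhibitors of proteases, gave some of the steepest falls, with 9 of 19 lower and none higher in limma and a median of -1.15. *Serpinb9b*, of the family that blocks granzymes, had 14.4, 6.54 and 23.7 normalized reads at 5 weeks, against 1247, 1982 and 1349 at 1 week (-6.72, SE 0.48, adjusted p = 5.83e-07). *Serpinb9g* had 0 reads in all 3 libraries of 5 weeks, against 21.7, 40.1 and 37.8 normalized reads at 1 week, at least 36.6-fold lower against a floor of 3 reads over the group. The *Serpinb9* genes are close copies, so reads may have been split among them. *Cdkn2b*, which encodes the inhibitor p15, fell by 1.93 (adjusted p = 0.0134), with an adjusted p of 0.0695 in the libraries that had *Ddx3y* above 100. *Tnnt3*, a troponin of fast muscle, fell by 4.98 (adjusted p = 0.000469), with differences of -5.80 and -4.37 without OE replicates 1 and 3 of 5 weeks.

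Of 29 fibroblast and matrix genes 5 were higher and none lower, with a median of 0.47, while 24 did not pass the test, so the higher share lay not far above the 11.1% of all genes. *Mfap5*, a microfibril protein, had 636, 267 and 638 normalized reads in OE kidneys at 5 weeks, against 120, 89.6 and 204 at 1 week (1.87, SE 0.44, adjusted p = 0.00637). *Col12a1*, a fibril-associated collagen, had 2389, 1857 and 2091 at 5 weeks, against 934, 385 and 1027 at 1 week (1.55, SE 0.30, adjusted p = 0.00178). Neither overlapped, and the controls averaged 60.1 ± 28.5 and 613 ± 83.0 at 5 weeks (SD, n = 3 each). The summed level of the list was 98350 to 230132 at 5 weeks and 66858 to 129726 at 1 week, so the groups overlapped, and the median of the list was 1.04 above control at 5 weeks and 0.33 above control at 1 week. The count of 5 was 3 and 2 without OE replicates 1 and 2 of 1 week, 3 and 2 without OE replicates 1 and 3 of 5 weeks, and 9 in the libraries that had *Ddx3y* above 100.

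Of 19 metalloproteinases and inhibitors 4 were higher and 3 lower, with a median of 0.16, beside 11.1% higher and 14.7% lower over all genes. *Mmp15*, a membrane-bound protease, had 270, 261 and 381 normalized reads at 5 weeks, against 155, 122 and 98.7 at 1 week (1.28, SE 0.22, adjusted p = 0.000795). *Mmp2*, which cleaves basement membrane collagen, had 1975, 778 and 1537 at 5 weeks, against 815, 398 and 673 at 1 week (1.14, SE 0.28, adjusted p = 0.00788), where 1 library of each group overlapped and the adjusted p was 0.0747 in a fit of the compared groups alone. *Adam8*, of activated leukocytes, and *Adamts4*, an aggrecanase, fell by 1.79 (adjusted p = 0.00157) and 1.36 (adjusted p = 0.00699).

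Podocyte genes, which build the filtration barrier of the glomerulus, were lower at 5 weeks. Of 15 tested, 11 were lower and none higher in limma, with a median of -0.65. *Nphs1*, which encodes nephrin, had 136, 133 and 101 normalized reads in OE kidneys at 5 weeks, against 354, 292 and 497 at 1 week (-1.60, SE 0.37, adjusted p = 0.0058). All libraries of 5 weeks were below those of 1 week, and the controls averaged 703 ± 73.5 at 5 weeks and 750 ± 197 at 1 week (SD, n = 3 each). *Ptpro*, a phosphatase of foot processes, fell by 1.88 (adjusted p = 0.000181), and *Cdkn1c*, which encodes the inhibitor p57, by 1.87 (adjusted p = 0.000838). At 1 week *Cdkn1c* averaged 3511 ± 753 in OE kidneys, above the 1527 ± 147 of controls. At 5 weeks it averaged 1110 ± 803 in OE kidneys, against 1925 ± 476 in controls (SD, n = 3 each). The count of 11 was 7 without OE replicate 1 or 3 of 1 week or replicate 3 of 5 weeks, and 7 in the libraries that had *Ddx3y* above 100. Against the controls of the same week the median of the list was -0.55 at 5 weeks and 0.13 at 1 week.

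In the collecting duct, many genes of both main cell types were higher. Of 13 principal cell genes, which reabsorb sodium and water, 8 were higher and none lower, with a median of 0.83. *Hsd11b2* (chr8:105518755-105523988), which shields the mineralocorticoid receptor from glucocorticoid, had 6667, 7853 and 7378 normalized reads at 5 weeks, against 2789, 2222 and 2841 at 1 week (1.48, SE 0.14, adjusted p = 4.74e-06). *Scnn1b*, a subunit of the epithelial sodium channel, had 2185, 4277 and 3596 at 5 weeks, against 1379, 1288 and 1101 at 1 week (1.37, SE 0.18, adjusted p = 6.84e-05). The late values of *Hsd11b2* exceeded its control mean of 5761 ± 346 (SD, n = 3). The count of 8 was 5 without OE replicate 2 of 1 week or OE replicate 2 or 3 of 5 weeks. Of 16 intercalated cell genes, which secrete acid or base, 12 were higher and 1 lower, with a median of 0.95, and the lower one, *Car2*, at -0.43, was named after its values were seen and lost its call without OE replicate 1 or 2 of 1 week or OE replicate 2 of 5 weeks. *Insrr*, an alkali sensor, had 866, 1024 and 715 at 5 weeks, against 315, 348 and 284 at 1 week (1.45, SE 0.18, adjusted p = 5.51e-05). *Slc4a9*, an anion exchanger of base-secreting cells, had 1733, 3645 and 2541 at 5 weeks, against 757, 1184 and 1038 at 1 week (1.37, SE 0.22, adjusted p = 0.000327). *Hmx2*, a homeobox factor, rose by 1.36 (adjusted p = 0.000791) and *Atp6v1c2*, a subunit of the proton pump, by 1.2 (adjusted p = 2.16e-05).

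In the distal convoluted tubule 3 of 14 genes were higher and 2 lower, with a median of 0.01, and those that rose carry calcium. Over all genes 11.1% were higher and 14.7% lower. *Slc8a1*, the sodium-calcium exchanger, had 1541, 1412 and 1325 normalized reads at 5 weeks, against 859, 321 and 594 at 1 week (1.38, SE 0.29, adjusted p = 0.00313). *Calb1*, which encodes calbindin, had 25746, 20490 and 19569 at 5 weeks, against 16284, 7805 and 9006 at 1 week (1.06, SE 0.26, adjusted p = 0.0082), with a control mean of 39303 ± 6281 at 5 weeks (SD, n = 3). *Trpv5*, the apical calcium channel, rose by 1.03 (adjusted p = 0.000917). The 2 lower genes became 0 without OE replicate 1 or 3 of 1 week or OE replicate 2 or 3 of 5 weeks, and 1 without the other 2 libraries. In the thick ascending limb 2 of 16 genes were higher and 2 lower, with a median of -0.07, shares near those over all genes. *Umod*, which encodes uromodulin, had 21824, 26957 and 24922 at 5 weeks, against 52288, 54761 and 48498 at 1 week (-1.08, SE 0.29, adjusted p = 0.0126), where the 1-week values were like the control mean of 58932 ± 21545 (SD, n = 3). The lower count was 1 without any 1 library other than OE replicate 1 of 5 weeks, and the higher count was 1 without OE replicate 2 or 3 of 1 week or replicate 2 of 5 weeks.

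**Figure D4:**
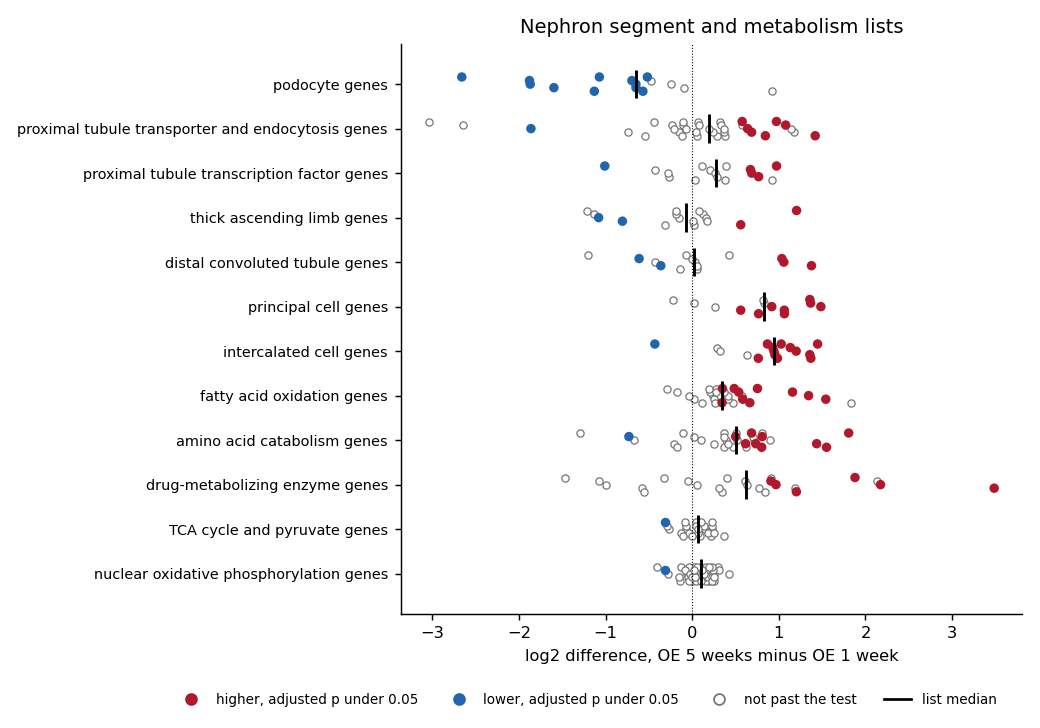
Log2 difference of OE kidneys at 5 weeks minus OE kidneys at 1 week (x) for each tested gene of 12 nephron segment and metabolism lists (rows), with filled points past an adjusted p of 0.05 and a bar at the list median. Podocyte genes have the lowest median, -0.65, and intercalated cell genes the highest, 0.95, while genes of oxidative phosphorylation lie around 0.10.

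The proximal tubule makes up the bulk of the cortex. Of its 35 transporter and endocytosis genes 7 were higher and 1 lower, with a median of 0.19, beside 11.1% higher and 14.7% lower over all genes. Without OE replicate 3 of 1 week, 3 were higher. *Slc13a3*, a carrier of dicarboxylates, had 11736, 4876 and 5265 normalized reads at 5 weeks, against 3201, 2537 and 1937 at 1 week (1.42, SE 0.35, adjusted p = 0.00849). *Slc17a1*, a carrier of phosphate and urate, had 11436, 14323 and 9554 at 5 weeks, against 5696, 6919 and 5255 at 1 week (0.97, SE 0.25, adjusted p = 0.00911). *Slc34a3*, the type 2c phosphate transporter, was the member that fell, with 530, 103 and 360 at 5 weeks, against 1458, 1012 and 647 at 1 week (-1.86, SE 0.46, adjusted p = 0.00781). Its adjusted p was 0.0632 in a fit of the compared groups alone, its difference was -1.17 without OE replicate 2 of 5 weeks, and 4 members were lower without OE replicate 1 of 5 weeks. *Slc13a3* stayed below its control mean of 15275 ± 2579 (SD, n = 3), and the median of the list was -0.59 against control at 5 weeks and -1.18 at 1 week. Of 16 transcription factors of this segment 4 were higher and 1 lower, with a median of 0.27, and 2 were higher without OE replicate 3 of 1 week or replicate 2 of 5 weeks. *Zbtb20*, a zinc finger repressor, rose by 0.77 (adjusted p = 0.00713), and *Nr1i2*, which encodes the xenobiotic receptor PXR, fell by 1.01 (adjusted p = 0.00109).

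Of 30 fatty acid oxidation genes 10 were higher and none lower, with a median of 0.35. For this and the next lists the shares over all genes were 11.1% higher and 14.7% lower. *Acaa1b*, a peroxisomal thiolase, had 4140, 3634 and 2518 normalized reads at 5 weeks, against 1258, 1204 and 1011 at 1 week (1.54, SE 0.25, adjusted p = 0.000434). *Acot1*, an acyl-CoA thioesterase, had 1749, 2403 and 1885 at 5 weeks, against 699, 859 and 806 at 1 week (1.34, SE 0.20, adjusted p = 0.000212), and both have near copies. The values of *Acaa1b* at 5 weeks lay at its control mean of 3831 ± 939 (SD, n = 3), and those of *Acot1* above its control mean of 1057 ± 69.5. The count of 10 was 5, 5 and 4 without OE replicates 1, 2 and 3 of 1 week and 6 and 3 without OE replicates 1 and 2 of 5 weeks. Of 31 genes of amino acid catabolism 9 were higher and 1 lower, with a median of 0.50, and the higher count was 4 and 1 without OE replicates 2 and 3 of 1 week and 4, 3 and 5 without OE replicates 1, 2 and 3 of 5 weeks. The lower gene lost its call without OE replicate 2 of either week or replicate 3 of 5 weeks, and 2 were lower without replicate 1 of 5 weeks. *Fah*, the last enzyme of tyrosine breakdown, rose by 0.81 (adjusted p = 0.00519). Of 24 drug-metabolizing enzymes 6 were higher and none lower, with a median of 0.62, and 3 without OE replicate 2 of 5 weeks. *Cyp4a14*, a fatty acid hydroxylase, had 19694, 46491 and 14686 at 5 weeks, against 5452, 8432 and 5877 at 1 week (1.88, SE 0.47, adjusted p = 0.00813). Of 48 nuclear genes of oxidative phosphorylation 1 was lower and none higher, with a median of 0.10, and of 25 genes of the TCA cycle 1 was lower and none higher, with a median of 0.07, and both lower genes lost their call without OE replicate 2 of either week. Against the controls of the same week those medians were -0.62 and -0.64 at 5 weeks, and -0.66 and -0.74 at 1 week.

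Imprinted genes of fetal growth moved in both directions, with 4 of 12 lower and 3 higher and a median of -0.61. *H19* (chr7:142575529-142578143), a long noncoding RNA of fetal tissue, had 257, 15.9 and 15.8 normalized reads in OE kidneys at 5 weeks, against 2695, 1853 and 3039 at 1 week (-5.89, SE 0.77, adjusted p = 6.39e-05). Its difference was -7.20, -5.23 and -5.23 without OE replicates 1, 2 and 3 of 5 weeks. *Igf2*, the fetal growth factor beside it, had 232, 108 and 128 at 5 weeks, against 939, 638 and 1040 at 1 week (-2.53, SE 0.34, adjusted p = 8.4e-05). *Plagl1*, a zinc finger factor of this gene network, had 857, 694 and 809 at 5 weeks, against 3771, 2471 and 2792 at 1 week (-1.92, SE 0.19, adjusted p = 6.95e-06). For *Igf2* and *Plagl1* the values at 5 weeks lay about the control means of 114 ± 36.4 and 839 ± 147 (SD, n = 3 each). The neighbours *Peg3* and *Zim1* rose, *Peg3* with 3650, 10146 and 4613 at 5 weeks, against 1522, 1608 and 1843 at 1 week (1.75, SE 0.40, adjusted p = 0.00519), and *Zim1* by 2.25 (SE 0.46, adjusted p = 0.00245). Of 25 cell cycle genes 1 was lower and none higher, with a median of -0.23, and 0 were lower without any 1 library.

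The largest rises among named genes whose libraries did not overlap were of varied kind. Genes low in other groups could pass the filter on the mean through their late OE values. *Crisp1*, a secreted cysteine-rich protein of the epididymis, had 18.9, 749 and 176 normalized reads at 5 weeks, against 3.42, 0.954 and 1.72 at 1 week (5.59, SE 1.21, adjusted p = 0.00353), with differences of 6.99 and 4.37 without OE replicates 1 and 2 of 5 weeks. *Sprr2f*, a cornified envelope protein, had 65.7, 470 and 659 at 5 weeks, against 9.12, 12.4 and 17.2 at 1 week (4.35, SE 0.87, adjusted p = 0.00204), with 5.37 and 3.72 without OE replicates 1 and 3 of 5 weeks. *Pappa2*, a protease of IGF-binding protein, had 547, 531 and 809 at 5 weeks, against 87.7, 42.9 and 30.0 at 1 week (3.64, SE 0.48, adjusted p = 7.04e-05), and its control mean was 73.8 ± 34.9 at 5 weeks (SD, n = 3). *Arhgap36*, a regulator of protein kinase A, had 79.3, 52.4 and 91.4 at 5 weeks, against 6.84, 5.72 and 11.2 at 1 week (3.09, SE 0.63, adjusted p = 0.00218). It averaged 2.27 in OE kidneys at 2 weeks, and 0.608 and 0.355 in controls at 5 weeks and 1 week. It thus passed the filter mainly through its late OE values. *Olfr78*, an olfactory receptor of renal vessels, rose by 3.32 (adjusted p = 0.000633), or 2.52 without OE replicate 1 of 1 week, and *Xlr3b*, an X-linked gene with near copies, by 3.35 (adjusted p = 0.00049). Means of *Xlr3b* at 5 weeks and 1 week were 38.9 and 3.01 in OE kidneys, and 8.03 and 41.8 in controls.

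The other 4 of those rises rested on fewer libraries. *Apoh*, a plasma apolipoprotein, rose by 3.22 (adjusted p = 0.00902), with differences of 4.09 and 2.02 without OE replicates 1 and 2 of 5 weeks and an adjusted p of 0.0656 in a fit of the compared groups alone. *Kcna2*, a potassium channel, rose by 3.07 (adjusted p = 0.00973), with differences of 1.90 and 3.79 without OE replicates 1 and 3 of 1 week and an adjusted p of 0.0664 in the fit of the compared groups alone. *Mfi2*, melanotransferrin, rose by 3.20 (adjusted p = 0.0128), with adjusted p of 0.0521 without OE replicate 1 of 1 week and 0.0579 without OE replicate 3 of 5 weeks. *Actg2*, smooth muscle actin of gut and bladder, rose by 2.53 (adjusted p = 0.0159), with adjusted p of 0.0691 and 0.0518 without OE replicate 2 of 1 week and of 5 weeks. With the libraries that had *Ddx3y* above 100, the adjusted p was 0.09 for *Apoh*, 0.0711 for *Kcna2* and 0.135 for *Mfi2*.

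Of 16 clock genes, which cycle over the day, 3 were lower and 2 higher, with a median of 0.15, shares near the 14.7% lower and 11.1% higher over all genes. *Arntl*, which encodes BMAL1, had 91.0, 415 and 225 normalized reads at 5 weeks, against 697, 917 and 755 at 1 week (-1.94, SE 0.59, adjusted p = 0.0236), with adjusted p of 0.0721 and 0.0554 without OE replicates 2 and 3 of 1 week and 0.103 without replicate 1 of 5 weeks. *Per3*, a repressor of opposite phase, had 2055, 1432 and 1331 at 5 weeks, against 539, 613 and 912 at 1 week (1.23, SE 0.31, adjusted p = 0.00948). *Arntl* averaged 106 ± 54.8 in controls at 5 weeks and 154 ± 120 in controls at 1 week (SD, n = 3 each). The lower count was 1, 0 and 1 without OE replicates 1, 2 and 3 of 1 week and 0 and 1 without OE replicates 1 and 3 of 5 weeks, and the higher count was 1 without OE replicate 1 or 2 of either week. The part of the hour of harvest in these values was not tested.

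The same interval was compared in control kidneys. Of 16984 genes, 0 passed an adjusted p of 0.05 between controls at 5 weeks and at 1 week in limma (0.0%), with 907 (5.34%) at an unadjusted p under 0.05. By the DEG definition, which also asks for a log2 fold change above 1 or below -1, there were 0 with edgeR and 17 with DESeq2. The difference of the change, OE minus control, was past an adjusted p of 0.05 in the higher direction for 1.79% of genes and in the lower for 5.2%, and 22.6% had an unadjusted p under 0.05. With a log2 difference above 1 or below -1 it was 182 higher (1.07%) and 432 lower (2.54%). Among the interferon response genes 29 of 31 had a lower change in OE than in control kidneys, as did 12 of 16 interferon-induced GTPases and 7 of 15 NF-κB genes. Among podocyte genes it was 3 of 15 lower, and among intercalated cell genes 5 of 16 higher. MHC class I genes had 1 of 17 past this test. The count of 182 was 111 without OE replicate 3 of 1 week, 113 without OE replicate 2 of 5 weeks, 83 without control replicate 2 of 1 week, and 85 and 98 without control replicates 2 and 3 of 5 weeks.

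Set against the controls of their own week, the 830 lower DEGs had a median log2 difference of 0.08 at 5 weeks and 1.5 at 1 week, and the 756 higher DEGs had 0.67 at 5 weeks and -0.56 at 1 week, against 0.02 and -0.02 over all genes. The DEGs were chosen on the OE libraries that enter these medians, so they are a description. Interferon response genes had a median of 0.32 above control at 5 weeks and 2.92 at 1 week, while macrophage and monocyte markers had 2.26 at 5 weeks and 2.46 at 1 week. Keratins had 1.49 at 5 weeks and 0.90 at 1 week. Thick ascending limb genes had -0.98 at 5 weeks and -0.53 at 1 week, and intercalated cell genes -0.24 at 5 weeks and -0.95 at 1 week.

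**Figure D5:**
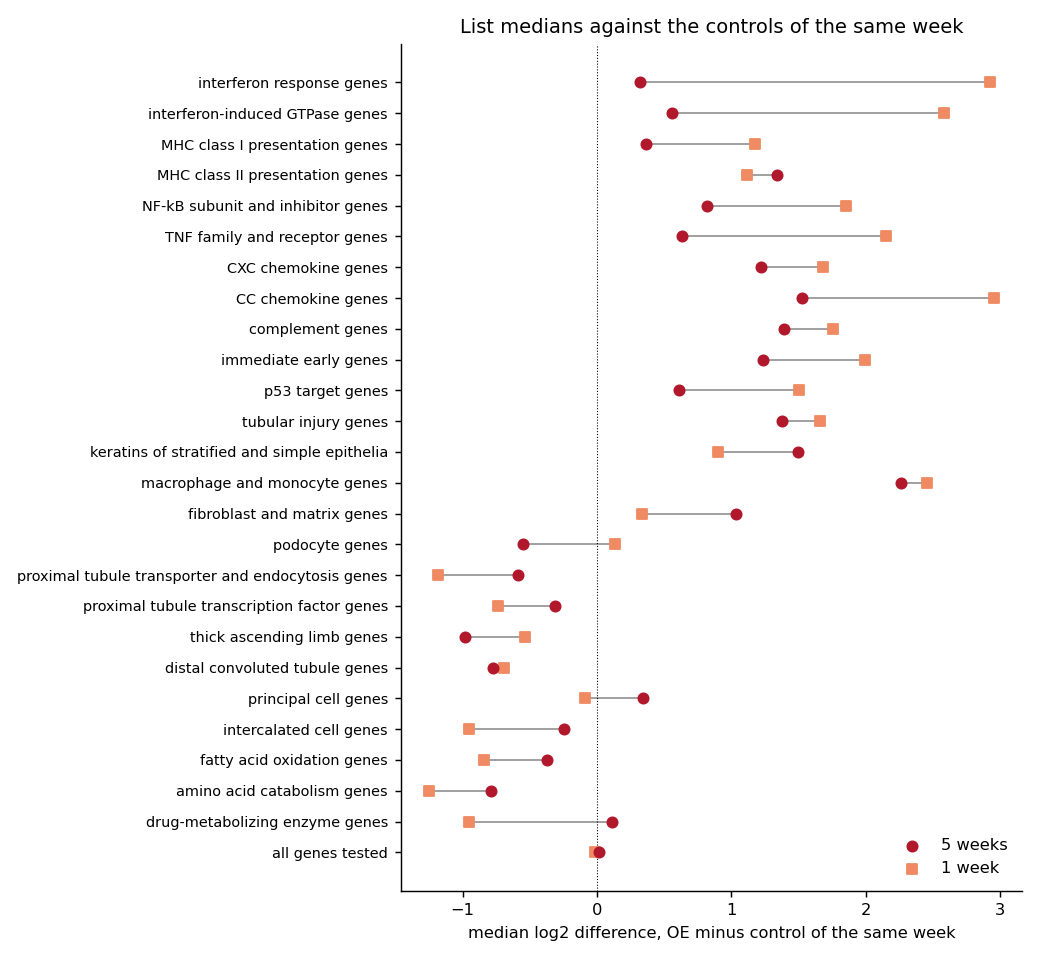
Median log2 difference of OE minus control kidneys of the same week (x) for 25 lists and all genes tested (rows), with circles for 5 weeks and squares for 1 week. Interferon response genes lie at 0.32 at 5 weeks and 2.92 at 1 week, macrophage and monocyte markers at 2.26 and 2.46, and podocyte genes at -0.55 and 0.13.

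Some genes were near 0 in some libraries and high in others of the same group, and were picked after their values were seen. *Rps2-ps13*, a ribosomal protein pseudogene on chromosome X, had 1.80, 0.935 and 0 normalized reads in OE kidneys at 5 weeks, against 1064, 1096 and 1299 at 1 week, and 0, 5.47 and 1076 in controls at 5 weeks and 1.11, 1204 and 1344 at 1 week. *Trim12a*, of a family of restriction factors, had 0, 1.87 and 0 in OE kidneys at 5 weeks, against 499, 1.91 and 631 at 1 week. Controls had 0, 0.912 and 168 at 5 weeks and 220, 0 and 255 at 1 week. *Ifi44l*, an interferon response gene outside the list, had 214, 0.935 and 387 in OE kidneys at 5 weeks, against 7.98, 0.954 and 2.58 at 1 week. Its controls were also higher at the later time, with 274, 97.5 and 184 at 5 weeks, against 6.69, 3.28 and 4.26 at 1 week. *Got2-ps1*, another pseudogene, had 113, 138 and 88.8 in OE kidneys at 5 weeks, against 1.14, 4.77 and 2.58 at 1 week. Controls had 1.06, 5.47 and 124 at 5 weeks and 4.46, 3.28 and 4.26 at 1 week. The reason for this pattern was not tested.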

How the data were processed

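Kidney RNA, selected for poly(A), was sequenced from 18 libraries, 3 in each of 6 groups. The deposited signal values are normalized read counts: per the labels and methods, the authors aligned with STAR to mm10, obtained gene counts from HTSeq and scaled each library by its DESeq2 size factor (versions not given in the sources used here). 100% of values came back as whole reads within 0.001 of a read, and total reads per library bound the precision of low genes. Coordinates are of GRCm38, GENCODE M21 (99.5% of identifiers matched). Promoters and miRNAs are of RefSeq, GRCm38.p6, and 4 promoters were printed.

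Genes with a mean above 10 were compared by limma 3.58.1 (R 4.3.3) after log2(value + 1), in 1 fit of all libraries with an intensity trend. The main test stayed limma because the deposited values are normalized. On the recovered reads edgeR 4.0.16 called 837 higher and 807 lower DEGs, and DESeq2 1.42.0 called 885 and 870. In simulated data of 16984 genes, 67, 67 and 66 genes were altered by log2 changes of 1.5, 2 and 3, in OE at 5 weeks alone. At an adjusted p under 0.05, limma called 74.6%, 86.6% and 97.0% of them. Far more genes passed in the real comparison, so these shares may differ there. Replicates of a group differed by more than sampling noise (chi-square per degree of freedom 17.2 or more).

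Alternatives were pseudocounts of 0.5 and 5, no filter, a mean above 50, quantile normalization, the compared groups alone, the replicate number as a block, *Xist* as a covariate, libraries with *Ddx3y* above 100 and leaving out each library. The members and the 57 lists (1029 genes, 959 tested) were chosen with earlier results of these data known. Some genes stand in more than 1 list, with 1077 entries for the 1029 genes, so counts of different lists are not fully separate. The rule for named genes took those the study names, the 10 largest rises and falls without overlap among genes with an assigned name, and the 4 leading members of each list with any that went against it, or the 2 most abundant where none passed. It gave 198 genes. The text describes 116 of these, picked after their values were seen and mostly because their call held under the alternatives, so they are steadier than the rule's genes as a whole. *Perp* and *Car2*, also of the rule, are given for their direction and are not counted among the 116. Genes named outside the rule are marked as such, and some genes of the rule are not reported here. Plots were made using Python 3.11.15 (matplotlib 3.10.9).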

Additional observations from a re-analysis of the deposited data

Results flagged for a closer look

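The change between 5 and 1 week of Dox differed between OE and control kidneys for 182 DEGs in the higher and 432 in the lower direction, by limma's interaction contrast. Of the named genes 75 passed this test, and the 37 that passed under every alternative are given here by their log2 difference of the change, OE minus control.

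The inducible gene and the fetal genes had lower changes in OE kidneys, *Lin28a* by -6.79, *Six2* by -6.30, *H19* by -5.71, *Igf2* by -2.59, *Plagl1* by -2.03, *Igf2bp2* by -1.69 and *Hmga1* by -1.42. Interferon-induced genes did so too, with *Apol9a* at -5.94, *Ifit1bl1* at -5.33, *Cxcl10* at -4.54, *Oasl1* at -4.21, *Ifit1* at -4.09, *Tgtp1* at -3.79 and *Iigp1* at -2.40. In the cytokine and NF-κB system *Csf3* differed by -4.41, *Nfkbid* by -4.14, *Tnf* by -4.13, *Tnfsf15* by -4.0, *Tnip1* by -1.91, *Nfkbie* by -1.75 and *Tnfaip3* by -1.54. Genes of injury and stress followed, with *Slc7a11* at -3.76, *Krt20* at -3.35, *Cdkn1a* at -2.94, *Trib3* at -2.36, *Ier3* at -2.18, *Ddit3* at -1.77, *Plk2* at -1.59 and *Mlkl* at -1.54. Part of the *Krt20* value lies in the controls, which averaged 65.4 ± 23.6 at 5 weeks and 23.1 ± 10.8 at 1 week (SD, n = 3 each). In OE kidneys alone *Krt20* differed by -1.82. Among podocyte genes *Ptpro* differed by -1.92.

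Higher changes in OE kidneys were found for *Xlr3b* (5.84), *Pappa2* (4.38), *Mmp15* (1.64), *Acot1* (1.5), *Insrr* (1.34), *Hsd11b2* (1.25) and *Atp6v1c2* (0.89). *Xlr3b* averaged 8.03 ± 7.25 in controls at 5 weeks and 41.8 ± 11.9 at 1 week (SD, n = 3 each). In OE kidneys it averaged 38.9 ± 8.76 at 5 weeks and 3.01 ± 1.38 at 1 week (SD, n = 3 each). OE kidneys thus lay above the controls at 5 weeks and below them at 1 week, and late OE kidneys were at the level of early controls.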

How the results depend on the processing

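The naming rule gave 198 genes, 188 of them past the test, and 108 of the 188 passed under every alternative. The genes described were picked largely for this, and so 97 of 112 described genes passed under every alternative, against 11 of the other 76 called genes. *Perp* and *Car2*, which lost their call without single libraries, are counted among the 76. None of the 188 changed direction. The 756 higher DEGs were 406 when a mean above 50 was asked for, 476 among *Ddx3y*-positive libraries (*Ddx3y* above 100), and 541 to 835 without any 1 library. The 830 lower DEGs were 655 to 877 without any 1 library. The 182 higher differences from control were 341 with DESeq2, 121 among *Ddx3y*-positive libraries and 83 to 273 without any 1 library, and the 432 lower were 313 to 493. The 0 DEGs between controls were 1 with no filter, 17 with DESeq2 and 4 in a fit of the compared groups alone. With the replicate number as a block the DEGs were 808 and 852, and none of the 112 lost its call between the weeks, while *Olfr78*, *Hmx2* and *Zbtb20* lost that of the difference from control. The numbers were not treated as pairs. By deviation from the group mean, same-numbered libraries of 5 weeks and 1 week correlated weakly. The values were 0.198, 0.108 and 0.0319 in OE and 0.0372, 0.0944 and 0.0337 in control kidneys. Each was the highest for its 5-week library, except that OE replicate 3 correlated best with replicate 2 of 1 week (0.0757). What the numbers stand for was not tested. Among genes not past the test, *Lcn2* had -0.32 and *Cd74* 0.0325 among *Ddx3y*-positive libraries, and without any 1 library *Lcn2* ran from -0.25 to 0.88 (-0.06 without OE replicate 3 of 5 weeks) and *Cd74* from -0.59 to 0.22. Of 57 lists, 35 had a higher count and 32 a lower count that moved by over 1.5 times under some alternative. The cause of these shifts was not tested. Depth limits genes near the filter.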
